A study of Arabidopsis thaliana with 3 samples.

Results

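Tails of 6 to 9 As were studied in flowers of Arabidopsis thaliana with the aim of finding which mRNAs carry many or few of them. The data are 3 TAIL-seq libraries, replicates 1, 2 and 3, from flowers of wild-type Col-0 plants, an inbred reference accession with no transgene and no treatment. The labels give no plant age. They form 1 group, so every comparison below is between tails or between mRNAs and none is between genotypes. Such tails were chosen by their number of As alone, whatever nucleotide followed, and amounted to 11563 of 455570 rows, where a row is 1 read on 1 gene. In reads they were 11351 of 442916. The study calls tails of this size excessively deadenylated. The table records the length of a tail and not how it came about, and some of the loci described below match mitochondrial, ribosomal or small nucleolar RNA, so the tails are named here by their length.

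A poly(A) tail is added to a pre-mRNA in the nucleus, protects the mRNA while poly(A)-binding proteins cover it, and is shortened in the cytoplasm by deadenylases such as the CCR4-NOT complex. When few As are left, the binding protein is lost and the mRNA becomes a substrate of decapping and of exonucleases. In Arabidopsis the terminal uridylyltransferase URT1 adds uridines to such shortened tails. Short A stretches also occur elsewhere. In plant mitochondria, and on nuclear precursors of ribosomal and small nucleolar RNAs, added As mark RNA for degradation or trimming.

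Tails of 6 to 9 As accounted for 3947 of 222681 reads in replicate 1, or 1.77% (Wilson 95% interval 1.72 to 1.83%). They accounted for 3489 of 113458 reads in replicate 2 (3.08%, 2.98 to 3.18%) and for 3915 of 106777 reads in replicate 3 (3.67%, 3.56 to 3.78%). The mean was 2.84% ± 0.969 (SD, n = 3). The intervals of the libraries did not overlap, and they cover counting error only. The read names place replicate 1 on a sequencing run of its own and the remaining pair together on a second, so the gap between replicate 1 and the others cannot be told apart from the run. The limit of 10 As cuts through a continuous distribution: just inside it, 1363, 1092 and 1188 reads had 9 As in replicates 1, 2 and 3, and just outside it 1669, 1292 and 1520 reads had 10 As. Stretches of fewer than 6 As were not recorded.

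**Figure D1:**
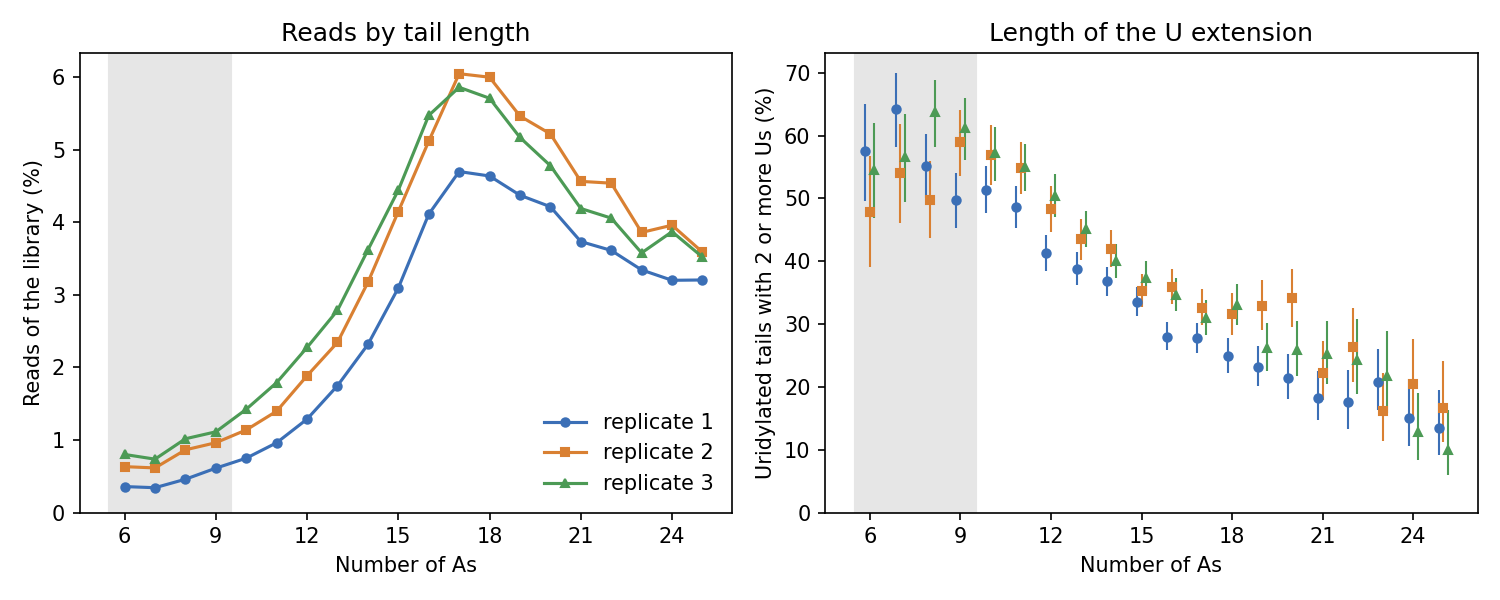
Left, share of the reads of each library (%) at each number of As from 6 to 25; right, share of uridylated tails (%) that carry 2 or more Us, with Wilson 95% intervals. Grey marks tails of 6 to 9 As. The left curves climb without a step at 10 As, and in the right panel the libraries lie between 47.9% and 64.3% over 6 to 9 As.

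Part of the difference between libraries lay in a few groups of loci, which were set apart after the values had been seen. Loci outside these groups, 16466 of 16577, had 1.69% short tails in replicate 1, 1.93% in replicate 2 and 2.41% in replicate 3, a mean of 2.01% ± 0.369 (SD, n = 3). The 22 mRNAs that the study followed by 3′RACE-seq had 1.09% in replicate 1 (41 of 3774 rows), 4.93% in replicate 2 (1637 of 33192) and 6.45% in replicate 3 (1600 of 24796). They thus gave 28.3% of all short rows, nearly all from replicates 2 and 3. The many rows of these replicates lay mainly in a few of the 22. CRD1 had 215, 15951 and 9163 rows in replicates 1, 2 and 3, and RCI2A 38, 8595 and 9257. Others had fewer rows than in replicate 1, as PUX3 with 1183, 474 and 578. The loci with mitochondrial or ribosomal sequence were small in rows but had the highest shares of the groups, and they are described first together with AT-IE.

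Each mRNA with at least 50 pooled rows was compared with all other mRNAs by a beta-binomial test that allows for the spread between libraries (two-sided, Benjamini-Hochberg adjusted over 1474 mRNAs). Over these mRNAs the median share of short tails was 1.26%, with quartiles of 0.279% and 2.24%, and 360 mRNAs had no short tail. The test called 24 mRNAs rich (1.63% of those tested) and 23 poor (1.56%). The rich mRNAs had shares of 6.23 to 75.1% and held 41.3% of the short tails of the mRNAs tested. The poor ones had shares of 0 to 1.12%. Since the share of short tails chose these mRNAs, their values are a description.

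**Figure D2:**
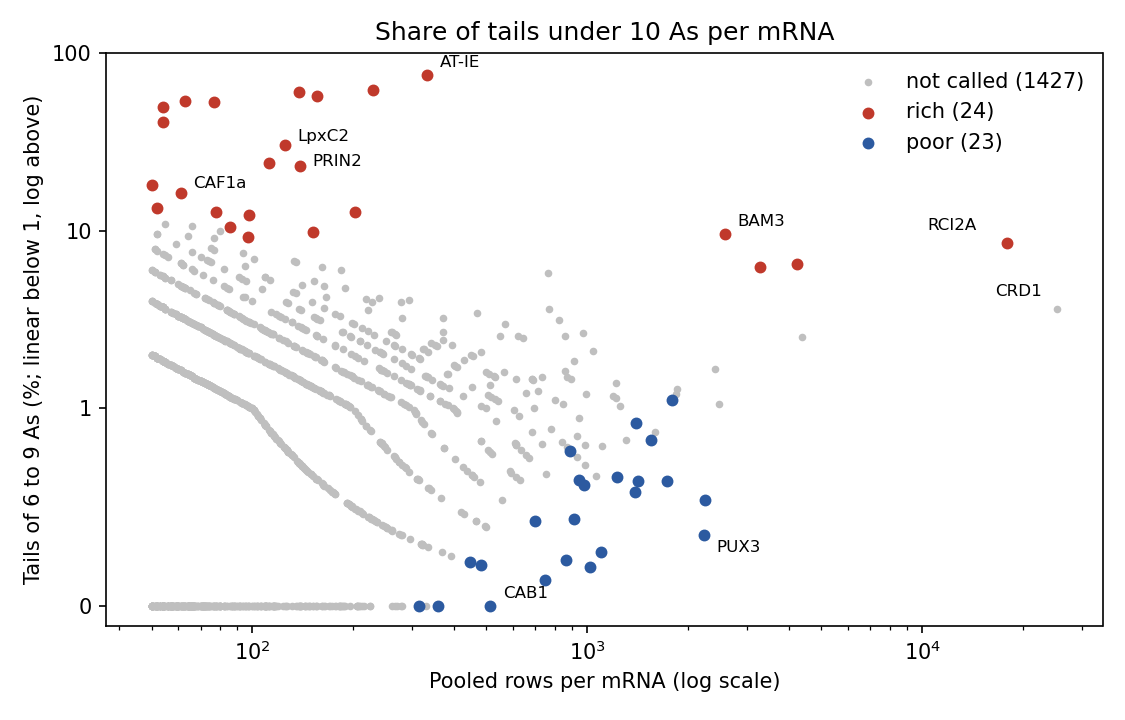
Share of tails of 6 to 9 As (%; linear below 1, log above) against pooled rows (log scale) for each of the 1474 mRNAs tested. Red marks the 24 rich and blue the 23 poor mRNAs. Rich mRNAs were called from 50 rows upwards, whereas no mRNA under 314 rows was called poor.

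The same call was made in single libraries and looked up in the libraries not used, with an exact conditional test on mRNAs of at least 50 rows in the single library. All 10 mRNAs called rich in replicate 3 and all 9 called rich in replicate 2 had more short tails than the other mRNAs in the remaining pair of libraries, as did 7 of 8 called in replicate 1. Among all mRNAs tested this was so for 12.7%, 13.9% and 16.7%. All 18 mRNAs called poor in replicate 3, 6 in replicate 2 and 6 in replicate 1 were below the other mRNAs elsewhere, but so were 87.3%, 86.1% and 83.3% of all mRNAs tested. In these counts the rich side lay above the share for all mRNAs tested, and the poor side had little room to differ from it. That background was not matched for the number of rows. The look-up used the same share that chose the mRNAs, so it is a description. Calls in replicates 2 and 3 could also repeat through the other library of their shared run. RCI2A and PKS2, called in both, had 0 of 38 and 0 of 24 short tails in replicate 1. RCI2A had 8595 and 9257 rows in replicates 2 and 3. Across 240 mRNAs with at least 50 rows in every library, the Spearman correlation of the share was 0.188 for replicates 1 and 2, 0.0588 for replicates 1 and 3, and 0.235 for replicates 2 and 3, given as a description over sparse counts.

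The mRNA with the highest share was AT-IE (AT1G31860), which encodes a bifunctional enzyme of histidine synthesis. Short tails were 15 of 23 rows in replicate 1, 94 of 116 in replicate 2 and 141 of 194 in replicate 3, or 75.1% pooled. Its tails were short in every library, with a median of 8 As. In the RefSeq annotation of TAIR10.1 this locus of chromosome 1 holds 3 small nucleolar RNA (snoRNA) loci on its own strand. SnoRNAs of the H/ACA class end shortly after an ACA triplet, and the last 30 bases of the 3 loci are shown here because reads of a snoRNA on this strand would be given to AT-IE. Capitals mark the last ACA.
AtsnoR79 (chr1:11435420-11435449, minus strand): gatggcatgggctacatctgtcctccACAa
AtsnoR79b (chr1:11435788-11435817, minus strand): atgacttggctccatttgttcatcACAgtt
AtsnoR79a (chr1:11436074-11436103, minus strand): atgcctgagctacatctgttcatcACAttt
The positions of the reads are not in the table, so whether these tails belong to the snoRNAs was not tested. None of the 250 short tails of AT-IE was uridylated, which allows a share of up to 1.20%. The 43 other loci with a snoRNA on their strand had 86 short tails of 3318 rows (2.59%), and of the 16 such loci tested AT-IE alone was called rich.

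The next group consisted of nuclear loci with a mitochondrial sequence. The short arm of chromosome 2 carries a large insertion of mitochondrial DNA near the centromere, and reads of mitochondrial transcripts can match it. Of the loci in the table, 42 shared at least 50% of the 31-base words of their mRNA with the mitochondrial genome, and 41 of these lay on chromosome 2 between bases 3240494 and 3503476 (TAIR10.1). Short tails were 142 of 285 rows in replicate 1 (49.8%), 171 of 306 in replicate 2 (55.9%) and 176 of 284 in replicate 3 (62.0%), with a mean of 55.9% ± 6.07 (SD, n = 3). All 5 of these loci that reached 50 rows were called rich. Whether these rows come from the nuclear or the mitochondrial copy cannot be told apart for identical sequence.

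Of the 5, AT2G07671 encodes an ATP synthase subunit C and had 48 of 82, 51 of 80 and 42 of 67 short tails in replicates 1, 2 and 3 (61.6% pooled). AT2G07698, for the alpha subunit of the F1 complex, had 13 of 30, 36 of 68 and 40 of 58 (57.1%). In both, more than 4 in 10 rows were short in every library. AT2G07706, of unknown function, had 10 of 18, 15 of 28 and 9 of 17 (54.0%). AT2G07707, for subunit 8 of the F0 complex, had 14 of 34, 9 of 15 and 18 of 28 (53.2%). AT2G07741, for subunit A of the F0 complex, had 8 of 24, 7 of 13 and 12 of 17, that is 27 of 54 pooled. Of these 5 loci, 4 are thus named for subunits of the mitochondrial ATP synthase that plant mitochondria encode. The last 30 coding bases of 2 of them are printed to show the identity, with capitals for bases that are the same in both genomes.
AT2G07671 (chr2:3251856-3251885, minus strand; mitochondrial genome 270961 to 270990): ATGGCCTTTTTGATCTTATTCGTATTCTGA
AT2G07698 (chr2:3363999-3364028, plus strand; mitochondrial genome 67098 to 67127): TTAAAAGAAAGAGCTTTAGCTTTAATTTAG

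AT2G16586, a locus of chromosome 2 with no known product, had 9 short tails of 24 rows in replicate 1, 57 of 87 in replicate 2 and 17 of 27 in replicate 3 (60.1% pooled). Of the words of its mRNA, 44.0% were found in the regions around the 45S ribosomal RNA genes. The last matching stretch lay 210 bases before the 18S rRNA locus of chromosome 3, on the strand of the rRNA, that is in the spacer removed from the precursor of ribosomal RNA. Capitals mark identical bases.
AT2G16586 (chr2:7191513-7191542, plus strand; chr3:14197467-14197496): ATCGCATTTGTTGCCTTGCTCGCATTGGTG
The 3 loci with at least 20% of such words, AT2G16586 included, had 19 of 42, 62 of 94 and 18 of 32 short rows in replicates 1, 2 and 3. In the plot by class of locus, these loci and those with mitochondrial sequence lie at similar heights and far above all other loci.

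**Figure D3:**
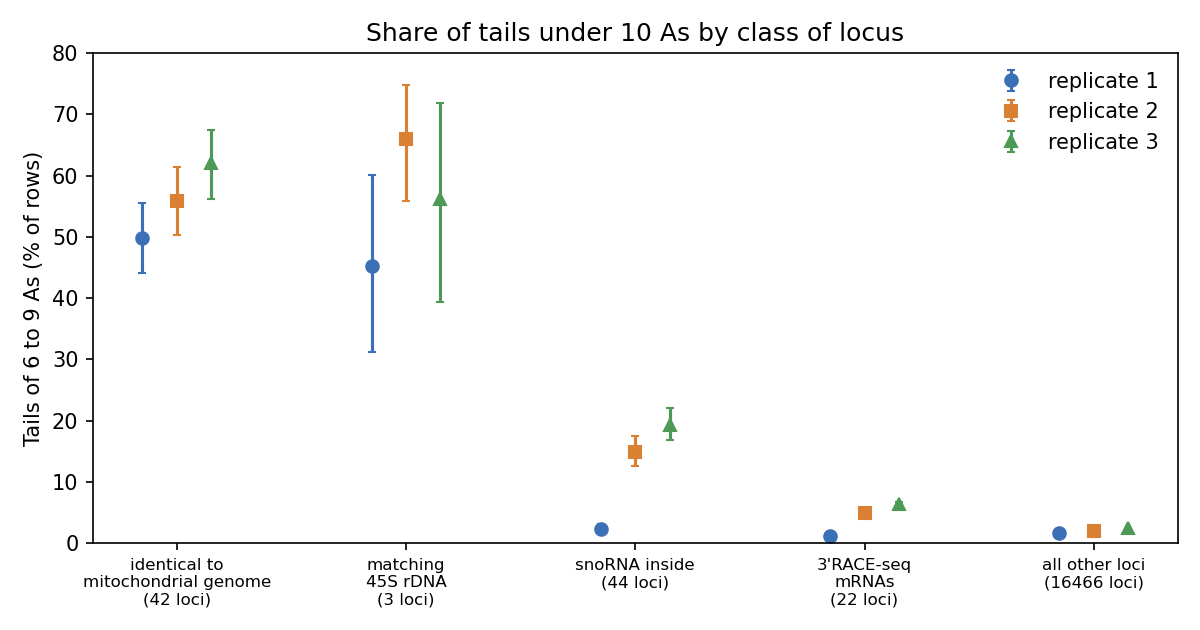
Share of tails of 6 to 9 As (% of rows) in 5 classes of loci, by library, with Wilson 95% intervals for counting error. Loci identical to the mitochondrial genome lie between 49.8% and 62.0%, loci matching 45S rDNA between 45.2% and 66.0%, and all other loci between 1.69% and 2.41%. The high values of snoRNA-holding loci in replicates 2 and 3 come mainly from AT-IE. Those of the 3′RACE-seq mRNAs come mainly from a few mRNAs, RCI2A and CRD1 above all.

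Tails with an added G formed a further group. They were 2.39% ± 0.220 of tails of 6 to 9 As and 0.291% ± 0.0471 of longer tails (SD, n = 3 for each). Most had the fewest As, with 156 reads at 6 As, 52 at 7, 31 at 8 and 32 at 9. Tails with an added C had no such peak, with 49, 40, 37 and 35 reads at 6, 7, 8 and 9 As. In rows, 163 tails consisted of 6 As and an added G.

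These tails were compared with the gene they were assigned to. Exons often end in AG before the GT that opens the intron, and in the first step of splicing the upstream exon is released with a free 3′ end. A tail was counted as matching if an annotated exon of its gene, followed by an intron, ended in exactly the same number of As and the same added nucleotides. Of the 163 tails of 6 As and G, 76 matched in this way (46.6%, Wilson interval 39.1 to 54.3%), with 28 of 48 in replicate 1, 23 of 56 in replicate 2 and 25 of 59 in replicate 3. Such exons are rare: 80 of 14265 loci with introns in the table have one (0.561%). Among the 62 loci with a tail of 6 As and G, 28 had such an exon (45.2%), against 4 of the 813 loci with an unmodified tail of 6 As (0.492%). Matching tails were 17 of 1781 for unmodified and 6 of 440 for uridylated tails of 6 As. Fewer exon ends could match these: 29 loci have one of 6 As alone, 8 of 6 As and U, and 4 of 6 As and C. The matching shares of the endings are therefore not on equal terms. At 9 As no tail of any kind matched, in 32 rows with G, 35 with C, 1211 with U and 2421 unmodified rows. Hardly any match was possible there, since exon ends of 9 As occur in 3 loci with G, 0 with C, 1 with U and 1 with neither. Over all tails of 6 to 9 As, 115 rows matched an exon end, or 0.995%.

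**Figure D4:**
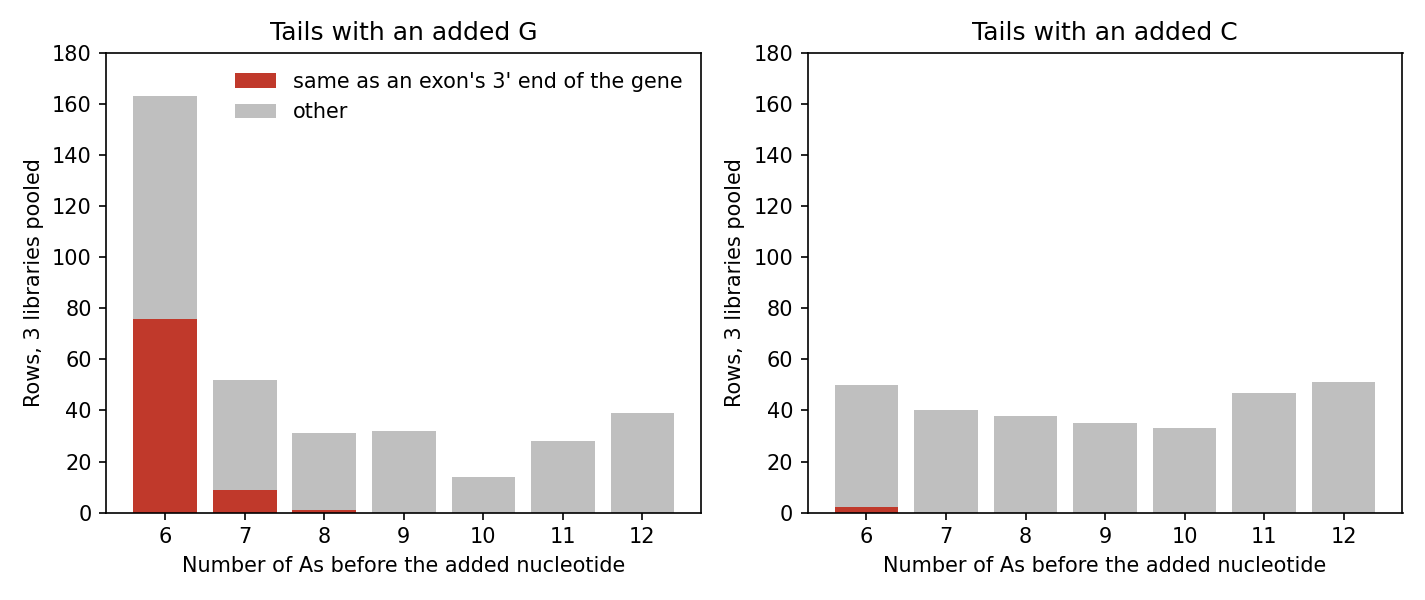
Rows of the 3 libraries pooled, by number of As, for tails with an added G (left) and an added C (right). Red marks rows whose As and added nucleotide are also the 3′ end of an annotated exon of the same gene. These were 76 of 163 at 6 As and G and 2 of 50 at 6 As and C. Exon ends of 6 As and G occur in 80 loci with introns, and those of 6 As and C in 4.

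The loci with most matching tails had too few rows for the test, and they were picked with their values in view. AT1G22930, for a T-complex protein, had 13 short tails of 21 rows, and all 13 were 6 As and G (3, 4 and 6 in replicates 1, 2 and 3). AT3G07700, for a protein kinase, had 9 of 20, again all 6 As and G (3, 5 and 1). AT1G01930, for a zinc finger protein, had 7 of 7, of which 6 matched, and AT4G14500, for a lipid transport protein, had 5 of 19, all matching. In AT1G55690, for a Sec14p-like protein, 5 of 6 short tails were 7 As and G. The exon ends are printed with the first 6 bases of the intron, and capitals mark the As and G that equal the tail.
AT1G22930 (chr1:8117924-8117953, plus strand, end of exon 1): acttctggctgctgaacAAAAAAGgtgaaa
AT3G07700 (chr3:2461108-2461137, minus strand, end of exon 10): gtttatgaaaaagatgcAAAAAAGgtaatt
AT1G01930 (chr1:321745-321774, minus strand, end of exon 3): tacaatgaacttgctttAAAAAAGgtttgt
AT4G14500 (chr4:8335719-8335748, plus strand, end of exon 3): atgattgttcagtggagAAAAAAGgtttct
AT1G55690 (chr1:20812167-20812196, minus strand, end of exon 2): atttatcgacaagaacAAAAAAAGgtttac
AT3G01710 (chr3:260308-260337, minus strand, end of exon 6): gagagagcagagagaagAAAAAAGgcaaga
In AT3G01710, for a TPX2 family protein, 5 of 6 short tails matched, and its intron opens with GC. The others printed open with GT directly after the G, as did 30 of the 33 loci with a matching G-ended tail, and 3 opened with GC. Whether the rows are released exons was not tested, since the position of the reads is not in the table.

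LpxC2 (AT1G24880), for a deacetylase of lipid A synthesis, was called rich through tails of the same form. Short tails were 7 of 47 rows in replicate 1, 12 of 37 in replicate 2 and 19 of 41 in replicate 3 (30.4% pooled), and 31 of the 38 were 6 As and G. With tails ending in G or C removed, it was no longer called. No annotated exon of LpxC2 ends in these bases, but they lie near the end of its exon 1, shown with the As and G in capitals.
LpxC2 (chr1:8776035-8776056, plus strand): agatccgcattAAAAAAGctaa
The sequence AAAAAAG, searched on the mRNA strand, is not particular to LpxC2: it occurs in 430 of 1471 annotated mRNAs tested (29.2%). Of the 125 rows of LpxC2, 98 were also assigned to its near-identical copy LpxC3 (AT1G25054), which had 4 of 43, 3 of 28 and 5 of 27 short tails (12.2%). The share of either gene is therefore uncertain, and all rows of LpxC3 were shared.

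The rich mRNAs outside these groups, 11 nuclear mRNAs besides those of the 3′RACE-seq assay and LpxC2 and LpxC3, had shares of 9.28 to 40.7%. AT2G31141, of unknown function, had 7 of 22, 3 of 10 and 12 of 22 short tails in replicates 1, 2 and 3 (40.7% pooled). Its median tail was 10 As. PRIN2 (AT1G10522), a chloroplast protein needed for transcription of plastid genes, had 5 of 27, 13 of 49 and 14 of 63 (23.0%). The 3 libraries of PRIN2 lay close together, at 18.5%, 26.5% and 22.2%. ELF4-L2, a relative of the circadian clock protein ELF4, had 4 of 21, 2 of 17 and 3 of 12 (18.0%). CAF1a (AT3G44260), one of the catalytic deadenylases of the CCR4-NOT complex, had 2 of 28, 2 of 13 and 6 of 20 (16.4%). The last pair rest on 9 and 10 short tails.

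SR1 (AT5G01820), a serine/threonine protein kinase, had 24 of 99 short tails in replicate 1, 0 of 3 in replicate 2 and 3 of 10 in replicate 3 (24.1%). The call came from replicate 1, as replicate 2 had hardly any rows. Of its 27 short tails 15 were uridylated. The other 6 were PKS2, a phytochrome signalling protein, with 12.8%, QRT3, a polygalacturonase that frees pollen grains from the tetrad, with 12.8%, LHT2, an amino acid transporter, with 13.5%, AT1G07020 with 10.5%, the pectin lyase-like AT1G10640 with 9.87%, and the auxin repressor IAA16 with 9.28%. PKS2 had no short tail among 24 rows in replicate 1 but 15 of 111 in replicate 2 and 11 of 68 in replicate 3. LHT2 had 7 of 49, 0 of 2 and 0 of 1, and IAA16 8 of 84, 1 of 5 and 0 of 8, so that replicate 1 held most of their rows. The direction was the same in all 3 libraries for 17 of the 24 rich mRNAs, and 16 of these had at least 10 rows in each. Only 6 of the 24 were called whichever replicate was left out, namely AT-IE, AT2G07671, AT2G16586, AT2G07698, LpxC2 and PRIN2, and several others then had under 50 rows and could not be tested.

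**Figure D5:**
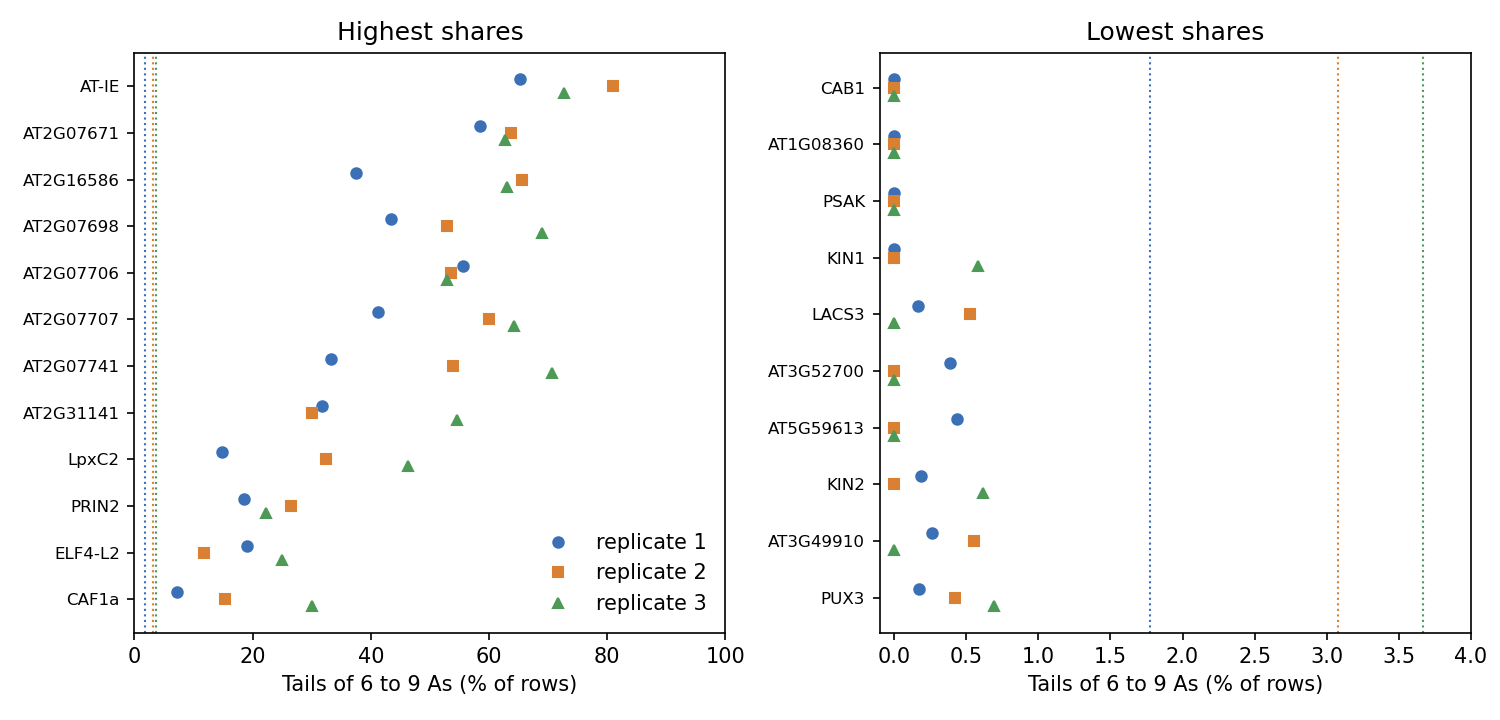
Share of tails of 6 to 9 As (% of rows) by library for the 12 highest rich (left) and the 10 lowest poor mRNAs (right) that had at least 10 rows and the same direction in every library. Dotted lines mark the share of each whole library, 1.77%, 3.08% and 3.67% in replicates 1, 2 and 3. The scales of the panels differ.

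Among the 3′RACE-seq mRNAs, 20 had 50 rows, 4 were rich and 1 was poor, beside 1.63% rich and 1.56% poor over all mRNAs tested. RCI2A (AT3G05880), a small membrane protein of the cold and salt response, had 0 of 38 short tails in replicate 1, 729 of 8595 in replicate 2 and 802 of 9257 in replicate 3 (8.56%). The row numbers of RCI2A differed by far more between replicate 1 and the others than depth did, and the assay's mRNAs together made up 1.63% of the rows of replicate 1, 28.9% of replicate 2 and 22.8% of replicate 3. Whether replicates 2 and 3 also hold reads from a targeted assay of these mRNAs was not tested, so their levels and shares may not be those of a whole-transcriptome library. BAM3 (AT4G20270), a leucine-rich receptor-like kinase, had 11 of 69, 113 of 1344 and 123 of 1162 (9.59%). AT1G24160 had 2 of 31, 148 of 2400 and 126 of 1806 (6.51%). ERD15 (AT2G41430), a protein that binds poly(A)-binding protein, had 8 of 340, 71 of 1249 and 125 of 1685 (6.23%). In replicate 1, BAM3 had 15.9% and AT1G24160, on 31 rows, 6.45%, whereas ERD15 had 2.35% and RCI2A none. CRD1, an enzyme of chlorophyll synthesis with the most rows of all (25329), had 3 of 215, 523 of 15951 and 398 of 9163 (3.65%) and was not called. Without replicate 2 BAM3 alone of the 4 rich mRNAs was still called, and without replicate 3 none was, whereas all 4 were called without replicate 1. The shares moved little meanwhile, to 8.63% and 8.44% in RCI2A and to 10.9% and 8.78% in BAM3 without replicates 2 and 3. The fitted overdispersion did move, from 0.00281 to 0.00585 and 0.00567 without replicates 2 and 3 and to 0 without replicate 1. The rows and the number of mRNAs tested also fell, and what ended the calls was not tested.

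The mRNAs poor in short tails had many rows, with a median of 981 against 98 for all mRNAs tested. Since 1281 of the 1474 mRNAs had fewer rows than the shallowest poor one, a low share was not detectable for most mRNAs at this depth. CAB1 (AT1G29930), a chlorophyll a/b-binding protein, had no short tail among 309, 108 and 96 rows in replicates 1, 2 and 3, which allows up to 0.585%. Most CAB1 rows (68.6%) were reads assigned to more than 1 gene, so its share is uncertain, and without them it was no longer called. AT1G08360, a ribosomal protein of the L1p/L10e family, had none among 219, 66 and 74 rows, and PSAK, a subunit of photosystem I, none among 126, 91 and 97.

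KIN1, a cold-induced protein, had 0 of 457, 0 of 119 and 1 of 173 short tails in replicates 1, 2 and 3 (0.134%). Its neighbour KIN2 had 1 of 538, 0 of 166 and 1 of 163 (0.231%), and 34.4% of the rows of KIN1 and 29.8% of those of KIN2 were reads assigned to more than 1 gene. LACS3, a long-chain acyl-CoA synthetase, had 1 of 606, 1 of 190 and 0 of 221 (0.197%). PUX3, which binds the segregase CDC48 and belongs to the 3′RACE-seq mRNAs, had 2 of 1183, 2 of 474 and 4 of 578 (0.358%). LACS3 and PUX3 also had long tails otherwise, with medians of 51 and 49 As among tails of 10 or more. AT3G52700, of unknown function, had 0.207%, AT5G59613, an ATP synthase protein, 0.224%, and AT3G49910, a translation protein with an SH3-like fold, 0.272%. All 23 poor mRNAs lay below the other mRNAs in all 3 libraries. That side was the usual one, since 83.3 to 87.3% of all mRNAs tested in single libraries lay below in the remaining pair. The median share over all mRNAs tested was 1.26%, close to the 1.12% of the highest poor mRNA. None was called without replicate 2 or without replicate 3, with 35 mRNAs then low at an unadjusted p under 0.05 in the beta-binomial test, whereas 41 were called without replicate 1, of which 21 were among the 23. The shares stayed low throughout, as in PUX3 with 0.341% without replicate 2 and 0.241% without replicate 3, while the overdispersion was the larger one given above for RCI2A. Rows, the number of mRNAs tested and the shares of the other mRNAs changed as well, and which of these ended the calls was not tested. Rich calls numbered 15, 10 and 7 without replicates 1, 2 and 3.

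Groups of genes were described by their counts and medians. Of 149 mRNAs for cytosolic ribosomal proteins, none was rich and 5 were poor, beside 1.63% rich and 1.56% poor over all mRNAs tested, and their median share was 0.893% beside 1.26% for all mRNAs tested. The poor ones were AT1G08360, SAC52, AT3G53740, AT4G34670 and AT5G18380. Of 44 mRNAs for photosynthesis, none was rich and 3 were poor (CAB1, PSAK and LHCA4), with a median of 1.11%. Without reads assigned to more than 1 gene, the poor calls of CAB1, LHCA4 and the ribosomal AT5G18380 were lost. Such reads were 68.6% of the rows of CAB1 and 34.4% of those of AT5G18380. LHCA4 had none (0%), so its own counts were unchanged and its share does not rest on them. Of 10 translation elongation factors none was called, and the median was 0.652%. Of 33 transcription factors none was called, with a median of 2.00% and a highest share of 10.9%. Histones (26 tested, median 1.39%), heat shock proteins (9, 1.72%), tubulins and actins (19, 1.21%), lipid transfer proteins (17, 1.46%), pollen coat and tapetum (10, 1.10%) and jasmonate synthesis and signalling (5, 2.51%) had no call either, and of 11 pollen mRNAs (median 1.69%) only AT1G78040, an Ole e 1-like protein, was called, as poor. Of the 28 factors of tail shortening, binding and decay with rows, only CAF1a and LSM1A reached 50 rows, and LSM1A, of the decapping activator LSM1-7, had 0 of 62.

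Rich and poor mRNAs were set beside all mRNAs tested for further properties. The length of tails of 10 or more As is not independent of the choice, which used the same measure. Uridylation of these tails is not either, since it fell with length, in replicate 1 from 40.3% at 10 As to 2.38% at 25 As. The median length of tails of 10 or more As was 20 As for the 17 rich mRNAs without mitochondrial, ribosomal or snoRNA sequence, and 24 As for both the poor and all mRNAs tested. Of tails of 10 or more As, 13.1% were uridylated in the median rich mRNA of this kind, 3.64% in the median poor one and 6.10% in all. The median 3′ UTR had 238, 310 and 306 bases, and the median number of introns was 1, 2 and 3. A run of at least 6 As in the annotated 3′ UTR, which could be read as a tail if an mRNA ended there, was present in 4 of the 17, 8 of 23 poor and 413 of 1471 mRNAs with an annotated 3′ UTR (28.1%). The share among the 17 was 23.5%, and no test was made of these differences.

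Uridylation was not used to choose the tails. Uridylated tails were 1262 of 3947 tails of 6 to 9 As in replicate 1 (32.0%), 849 of 3489 in replicate 2 (24.3%) and 1028 of 3915 in replicate 3 (26.3%). Tails of 10 or more As had 6.96%, 9.5% and 11.1%. Short tails were higher in 3 of 3 libraries, by a mean of 18.3 points ± 5.77 (SD, n = 3; stratified by library, the Cochran-Mantel-Haenszel chi-square was 4367; an exact sign-flip permutation test over 3 libraries cannot go below 0.25). Taken within each mRNA it was 17.2 points. The direction depended on the tails compared: against tails of 10 to 15 As, the mean difference was -4.33 points ± 3.55 (SD, n = 3). Replicates 1, 2 and 3 gave -0.24, -6.16 and -6.59 points, so the lower value of short tails lay in replicates 2 and 3. Without the mitochondrial, rDNA, snoRNA-holding and 3′RACE-seq loci and AT2G45160, a setting chosen after the data were seen, it was 1.12, -2.23 and -2.15 points (mean -1.09 ± 1.92, SD, n = 3) and no longer had 1 sign.

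The lower uridylation of short tails in replicates 2 and 3 moved with the groups of loci. At loci outside all groups it was 33.2%, 33.7% and 37.5% in replicates 1, 2 and 3. On the 3′RACE-seq mRNAs it was 24.4% (10 of 41), 19.4% (317 of 1637) and 17.5% (280 of 1600), and on loci of mitochondrial sequence it was 2.11%, 4.68% and 5.11%. Even without all these groups and AT2G45160, uridylation was lower at 6 As (20.6%, 22.7% and 26.5%) than at 9 As (36.9%, 40.5% and 42.1%).

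The length of the U extension was compared next. Among uridylated tails, 2 or more Us were carried by 696 of 1262 tails of 6 to 9 As in replicate 1 (55.2%), 457 of 849 in replicate 2 (53.8%) and 617 of 1028 in replicate 3. On tails of 10 to 25 As the shares were 32.8%, 37.7% and 37.9%. The difference was 20.2 points ± 3.55 (SD, n = 3; Cochran-Mantel-Haenszel p = 4.29e-115, two-sided; Fisher's exact test p = 1.78e-54, 9.86e-20 and 1.85e-42). These p-values treat reads as independent. The exact sign-flip permutation test over 3 libraries gave p = 0.25, the lowest it can reach. Tails just above the limit were close to the short ones. Against tails of 10 to 11 As, a comparison chosen after the data were seen, the difference was 5.31, -1.95 and 4.07 points in replicates 1, 2 and 3 (mean 2.48 ± 3.88, SD, n = 3; Cochran-Mantel-Haenszel p = 0.0147; Fisher's exact test p = 0.00559, 0.422 and 0.0571). The sign-flip permutation test gave p = 0.5 for this comparison. The longest extension on a short tail had 7, 9 and 8 Us in replicates 1, 2 and 3.

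The same beta-binomial test compared the uridylation of short tails between the 70 mRNAs with at least 10 of them. Its overdispersion was estimated anew, at 0.101 over 24 mRNAs. Of the 70 mRNAs, 9 (12.9%) were less often uridylated than the others and none (0%) more often. The median was 16.7%, with quartiles of 4.02% and 31.7%. Apart from AT-IE, 5 of the calls were loci of mitochondrial sequence, with 0 of 41 in AT2G07707 (adjusted p = 0.0114, beta-binomial test), 0 of 34 in AT2G07706, 0 of 28 in AT2G07815, 0 of 27 in AT2G07741 and 3 of 141 in AT2G07671. Of the loci of mitochondrial sequence, AT2G07698 with 14 of 89 (15.7%) and AT2G07675 with 0 of 19 were not called. AT2G07698 thus gave 14 of the 20 uridylated short tails of this class. The rDNA-matching AT2G16586 was called, with 2 of 83 (adjusted p = 0.0230, beta-binomial test). Both remaining calls were nuclear mRNAs. VSP1 (AT5G24780), a vegetative storage protein, had 0 of 4, 0 of 53 and 1 of 53 uridylated short tails in replicates 1, 2 and 3 (0.909%, adjusted p = 0.00396, beta-binomial test), although its share of short tails, 2.51%, was not called. RCI2A had 26 of 729 in replicate 2 and 26 of 802 in replicate 3 (3.40%, adjusted p = 0.00272, beta-binomial test), and its 52 extensions all consisted of 1 U. On longer tails too, VSP1 and RCI2A had little uridylation, 0.702% and 0.868%. Without replicates 1, 2 and 3 in turn, 11, 4 and 2 mRNAs were called less often uridylated, and 2, 0 and 0 more often.

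The remaining mRNAs were not called. Uridylated were 88 of 247 short tails of BAM3 (35.6%), 74 of 204 of ERD15 (36.3%) and 67 of 276 of AT1G24160, and in CRD1 298 of 924 (32.3%). The highest shares were 11 of 16 in XTH9, an enzyme of the cell wall, 10 of 15 in AT1G10640 and 15 of 27 in SR1, with adjusted p of 0.159, 0.286 and 0.498 in the beta-binomial test. One mRNA was higher at an unadjusted p under 0.05, and the exact conditional and the Cochran-Mantel-Haenszel test, which treat reads as independent, called 6 higher each. Among the rich nuclear mRNAs that were not called, PKS2 had 0 of 26 uridylated short tails, AT2G31141 1 of 22, LpxC2 2 of 38, PRIN2 2 of 32 and CAF1a 1 of 10.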

How the data were processed

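Flower RNA of 3 wild-type Col-0 samples was studied by TAIL-seq, in which an adapter is ligated to RNA 3′ ends, the RNA is cut with RNase T1, and the tail is read from its end. The authors mapped the reads to TAIR10 with HISAT2 2.1.0 and Bowtie2, assigned them to genes with bedtools 2.17.5, and deposited 1 table with 1 row for each read and gene, holding the number of As (6 to 91) and the added nucleotides. The values are lengths of single tails with no normalization. Of 455742 rows deposited, 172 repeated rows were dropped. The libraries held 222681, 113458 and 106777 reads. They are a group of 3 replicates by the labels, and the study describes them as biological replicates. Wilson intervals (95%) cover counting error only.

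Rows of 6 to 9 As were counted per gene. The beta-binomial test set the short tails of an mRNA against the share of all other mRNAs in each library, with 1 overdispersion (0.00281) estimated over 255 mRNAs, two-sided and Benjamini-Hochberg adjusted at 0.05. It needed 50 pooled rows, or 10 short tails for uridylation. For uridylation the overdispersion was estimated anew, at 0.101 over 24 mRNAs. The p-values of the test treat reads as replicates beyond the overdispersion. All adjusted p are from this test. In simulated data, 33 of 100 mRNAs raised and 7 of 100 lowered by 4-fold odds were recovered with 1 false call. All unchanged mRNAs there had the share of the whole library. The real shares were not equal, with a median of 1.26%, so the count of false calls need not hold for the data, least of all on the poor side. Differences between tails were tested by the Cochran-Mantel-Haenszel test. The rows named in full were the 12 highest rich and 10 lowest poor mRNAs with the same direction and at least 10 rows in each library. RefSeq TAIR10.1 was matched by locus ID (16496 of 16577 loci) and used for sequences, which are credited to it. Words of 31 bases were used to find mitochondrial and rDNA identity. Python 3.11.15, scipy 1.17.1 and pandas 2.3.3 were used.

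The tails, the mRNAs and the gene lists were chosen with earlier results of these data known. The mitochondrial, rDNA and snoRNA classes, the match to exon ends and the alternatives without these loci, without tails ending in G or C, against tails of 10 to 11 As, and against tails of 10 to 15 As without some loci were chosen after seeing the data. Other alternatives covered the limit of As, the minimum of rows, the test, shared reads and each replicate.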

Additional observations from a re-analysis of the deposited data

How the results depend on the processing

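Of 99 values under 29 alternative settings, 64 were labelled the same, 32 moved and 3 reversed, and the cause was not tested. For the differences in uridylation and in U extension, the label asked for the same sign and the same side of the 0.05 threshold, not for size. All 9 alternatives of the U extension were thus labelled the same, although they ran from 2.48 to 22.6 points. Leaving out 1 replicate gave 7 to 15 rich and 0 to 41 poor mRNAs, 2 to 11 mRNAs with less and 0 to 2 with more uridylated short tails, and a mean Spearman correlation of 0.0996 to 0.302. Fewer mRNAs then reached 50 rows, 600 without replicate 1 and 1188 and 1180 without replicates 2 and 3. The poor calls were the least stable. They numbered 12 without the 3′RACE-seq mRNAs, 12 with added nucleotides counted into the length, 6 for unmodified tails only, 0 with a limit of 8 As (13 at an unadjusted p under 0.05, beta-binomial test), 69 with a limit of 12 As, 36 against tails of 10 to 25 As, 15 with a minimum of 20 rows, 63 by the exact conditional test and 68 by Fisher's exact test. Rich calls numbered 15 for unmodified tails only, 12 with a limit of 8 As and 13 with a minimum of 100 rows. The mean share of short tails was 1.16% with a limit of 8 As, 5.33% with a limit of 12 As and 4.57% against tails of 10 to 25 As. The mean correlation was 0.350 with a limit of 12 As and 0.922 as Pearson's r. Pearson's r gives weight to extreme shares, such as the 58.5%, 63.8% and 62.7% of AT2G07671 in replicates 1, 2 and 3. Its value without this locus was not computed. Against tails of 10 to 15 As, the difference in uridylation was -4.33 points, or -2.52 without mitochondrial, rDNA and snoRNA-holding loci and -1.09 without these, the 3′RACE-seq mRNAs and AT2G45160. Fewer uridylated short tails were called in 17 mRNAs by the exact conditional test, in 5 with a minimum of 5 short tails and in 2 without mitochondrial, rDNA and snoRNA-holding loci, and more in 6 by the exact conditional test and 6 by the Cochran-Mantel-Haenszel test. No paired analysis was possible because the series has 1 group and no comparison between groups. Depth limits the poor side most, since few mRNAs had the 314 rows of the shallowest poor one.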
